A study of Mus musculus with 20 samples.

Results

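Genes of 2 scarce cell types of the airway epithelium, neuroendocrine cells and tuft cells, were followed across whole mouse tracheas. The members were Calca, Chga, Chgb and Scg2 for neuroendocrine cells and Trpm5, Gnat3, Pou2f3, Avil and Dclk1 for tuft cells, and every gene probe that carries a member's name on the array was taken, with Dclk1 also under its older name Dcamkl1. This gave 14 probes of 8 of the 9 members, out of 41174 probes in all. No probe carried the name Gnat3, which was not analysed here. The test took probes that stood well above background on 10 or more of the 20 arrays, 26063 in all, and among them were 11 member probes, of 7 members. Pou2f3 was not tested.

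Total RNA was taken from 20 whole tracheas, each hybridized with a single dye to its own Agilent whole mouse genome array. There were 4 groups of 5: wild-type (C57/Bl6) and Myd88 KO (called Myd88KO) mice left uninjured, and mice of each genotype killed 3 days after 2% polidocanol, a detergent that strips the tracheal epithelium. The labels give an age of 4 months for all groups, whereas the methods give 4 to 6 months and both sexes, with the sex of single samples unlabelled here. Myd88 is an adaptor of Toll-like and interleukin-1 receptors, and its deletion is global per the study's text, so that epithelial cells and leukocytes alike carry it. Knockouts, backcrossed for 6 generations to C57/Bl6JOlaHsd, were bred among themselves and the wild-type mice came from another colony, so that genotype and colony cannot be told apart. No sham instillation is named for the uninjured mice.

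Neuroendocrine cells store peptides and amines in dense-core granules. Granins, such as chromogranin A (Chga), chromogranin B (Chgb) and secretogranin II (Scg2), are acidic proteins that fill these granules, and Calca encodes calcitonin or, by alternative splicing, the neuropeptide CGRP. In the airway CGRP marks neuroendocrine cells and sensory nerves, whereas the C cells of the thyroid make calcitonin and the parathyroid makes chromogranin A. Tuft cells, also called brush cells, sense compounds in the lumen through the cascade used in taste. Gnat3 is the taste G protein gustducin, phospholipase C-beta2 acts below it, and Trpm5 is the calcium-activated cation channel at the end of the cascade. Pou2f3 is the transcription factor that tuft cells require, Avil (advillin) bundles the actin of their microvilli, and Dclk1 is a microtubule-binding kinase that is also made by neurons and mesenchymal cells.

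The promoters of the members on which the results below turn are shown from RefSeq (GRCm38.p6), 5′ to 3′ on the gene's strand, as the 250 bases before the start of the gene. Promoters were found for 8 of the 9 members. The granin promoters are shown because Chgb and Scg2 varied together between animals. Capitals mark TGACGT or its reverse complement ACGTCA, the core of the cAMP response element, whose full palindrome is TGACGTCA.
Chga: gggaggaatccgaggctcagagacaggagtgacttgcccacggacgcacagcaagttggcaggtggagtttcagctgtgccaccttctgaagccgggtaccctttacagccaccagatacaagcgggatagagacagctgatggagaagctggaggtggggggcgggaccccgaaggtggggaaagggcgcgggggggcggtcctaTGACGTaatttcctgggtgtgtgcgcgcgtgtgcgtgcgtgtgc
Chgb: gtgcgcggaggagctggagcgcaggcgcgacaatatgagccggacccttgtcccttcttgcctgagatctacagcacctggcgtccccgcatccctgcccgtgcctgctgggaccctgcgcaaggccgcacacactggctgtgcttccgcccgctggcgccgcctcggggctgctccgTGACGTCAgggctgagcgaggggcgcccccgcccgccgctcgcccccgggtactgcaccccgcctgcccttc
Scg2: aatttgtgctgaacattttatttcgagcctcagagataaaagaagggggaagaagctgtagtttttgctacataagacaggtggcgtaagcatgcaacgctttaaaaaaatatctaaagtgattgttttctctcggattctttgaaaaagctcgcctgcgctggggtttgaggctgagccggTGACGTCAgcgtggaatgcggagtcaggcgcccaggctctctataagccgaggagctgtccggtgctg
These windows lie at chr12:102554691-102554940 on the plus strand, chr2:132781392-132781641 on the plus strand and chr1:79440027-79440276 on the minus strand. The full palindrome was present in the windows of Chgb, beginning 72 bases before the start, and of Scg2, beginning 68 bases before it, and its core alone was present in that of Chga, 44 bases before the start. Over all 32851 promoter windows of this length, 1.55% held TGACGTCA and 6.47% held TGACGT on either strand. The Calca window held neither. The windows of Trpm5 and Avil are shown because these were the members called lower after injury. Capitals mark ATGCAA or TTGCAT, the first 6 bases of the octamer ATGCAAAT that POU factors such as Pou2f3 bind.
Trpm5: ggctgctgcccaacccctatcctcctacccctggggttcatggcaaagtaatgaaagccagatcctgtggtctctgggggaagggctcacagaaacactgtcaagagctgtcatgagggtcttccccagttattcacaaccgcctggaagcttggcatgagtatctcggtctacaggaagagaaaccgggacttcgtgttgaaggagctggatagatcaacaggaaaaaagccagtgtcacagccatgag
Avil: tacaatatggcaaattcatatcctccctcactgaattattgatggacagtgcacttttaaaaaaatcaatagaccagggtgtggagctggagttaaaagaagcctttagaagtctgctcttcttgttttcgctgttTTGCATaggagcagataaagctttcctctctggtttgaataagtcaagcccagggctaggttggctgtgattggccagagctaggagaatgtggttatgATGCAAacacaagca
They lie at chr7:143094643-143094892 on the minus strand and chr10:127000459-127000708 on the plus strand. The Avil window held the 6 bases at 2 places, beginning 114 and 15 bases before the start, and the Trpm5 window held them nowhere. The full octamer was in neither window, and over all windows 1.60% held the octamer and 9.46% held the 6 bases on either strand. The 6 bases were also in the windows of Scg2, 159 bases before the start and unmarked above, and of Gnat3, 82 bases before it. They are thus not particular to tuft members. A match of letters is a description of the sequence, not a site.

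Signals are given as log2 intensity relative to the 75th percentile of the same array, so that 0 is a bright probe, and levels of different probes are not compared. The arrays had 57.5% to 67.8% of spots well above background, and their number, 5 per group, limits the precision. The single Myd88 probe was well above background on all 10 Myd88KO arrays, with 1.60 to 2.04 in the uninjured and 1.54 to 2.09 in the injured, against 1.94 to 2.28 and 2.36 to 2.80 in wild-type. Whether this probe lies in the deleted part was not tested, so it does not check the labels. Replicate 5 of the injured Myd88KO group stood apart. Over the 1372 probes called in wild-type injury it carried -0.03 of the mean wild-type change (slope through the origin), against 0.34 to 0.97 in the other 4 Myd88KO and 0.85 to 1.14 in the 5 wild-type injured tracheas, each set against the mean of the other 4. The probes were chosen on these wild-type arrays, so their values near 1 are a description. Trpm5 and Avil are among these probes, so leaving out replicate 5 of injured Myd88KO is not independent of the members' values. In replicate 5 of injured Myd88KO the secretory marker Scgb3a2 was 9.10, within the uninjured range of 8.59 to 9.66. Whether this trachea was injured as its label says was not tested, and injured Myd88KO differences of the members are given with and without it. Replicates 1 and 5 of injured wild-type, scanned on the second day, also stood apart. The summed signal of ciliated markers (log2 of the sum) was 2.29 and 2.58 there against 4.70 to 5.63 on the other 3, that of epithelium markers 7.23 and 7.33 against 8.38 to 8.61, and that of basal markers 7.46 and 7.34 against 8.57 to 8.77. In uninjured wild-type these sums were 4.72 to 5.60, 7.34 to 7.52 and 7.23 to 8.89. In injured Myd88KO the ciliated sum was 6.98, 3.79, 4.97, 2.85 and 5.34 in replicates 1 to 5, against 4.99 to 5.14 in uninjured Myd88KO. Replicate 1 of injured Myd88KO, also scanned on the second day, had the highest ciliated sum of all arrays, with Scgb3a2 at 7.94. Results that differ between the scan days, such as those for Trpm5, Avil and Dclk1, involve these arrays. So do the neuroendocrine values of injured wild-type replicate 5, and the part of the marker levels was not tested. The samples also held endocrine tissue from the neck. The thyroid gene Tg was 6.40 to 8.83 on all 20 arrays, and parathyroid hormone (Pth) ran from -7.35 to 8.45, with its highest value in replicate 5 of injured wild-type. Of the other parathyroid markers, Gcm2 and Casr were each well above background on 2 arrays, and of the C cell markers Gfra4 was well above background on 20 arrays by 2 of its probes, Cckbr on 8 by the brighter of its 2, and Ret and Glp1r on 0.

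Trpm5 was the member with the largest difference after injury. In uninjured wild-type tracheas its signal was -1.58, -1.72, -2.08, -2.01 and -1.76 in replicates 1 to 5, and in injured wild-type tracheas it was -5.81, -5.90, -5.74, -4.57 and -6.18. The groups did not overlap, as was so, with the lower values after injury, for 4.68% of all tested probes, and the probe was well above background on all 5 uninjured but 1 of the 5 injured arrays. Trpm5 fell by 3.81 on the log2 scale (SE 0.52, 14.04-fold, adjusted p = 0.000273), a fold that rests on injured values at or near background. With another background correction, normexp, the difference was -1.71 (SE 0.31, adjusted p = 0.00143). Between arrays of the same slide the difference was -4.42 to -2.56, below 0 on 5 of 5 slides. In these bulk samples fewer cells of a type and less RNA per cell cannot be told apart.

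In Myd88KO tracheas Trpm5 was -1.48, -1.45, -1.03, -1.41 and -1.47 without injury and -4.09, -5.42, -4.25, -5.35 and -1.37 after it. Of the injured arrays 4 lay below every uninjured array and replicate 5 lay among them, so that the groups overlapped. The difference was -2.73 (SE 0.52), with an adjusted p of 0.0108 that did not pass the threshold of 0.01. The probe was well above background on 5 uninjured and 3 injured arrays, replicates 1, 3 and 5. Without replicate 5 it was -3.41 (SE 0.30, adjusted p = 2.00e-06) and passed, with 2 of the 4 injured arrays left not well above background, and with normexp on all arrays it was -1.68 (SE 0.31, adjusted p = 0.00794). On the slides the difference ran from -3.98 to 0.10, with replicate 5 the only slide above 0. Within the first scan day it was -3.71 (SE 0.37, adjusted p = 0.000298). Within the second, which holds replicate 5, it was -1.26 (SE 0.75, adjusted p = 0.613).

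Avil was the second member called in wild-type. Its signal was -3.64, -2.97, -2.89, -3.0001 and -3.10 in uninjured and -3.62, -4.35, -4.70, -4.34 and -4.20 in injured wild-type tracheas. Replicate 1 had nearly the same value with and without injury, so the groups overlapped, and the other 4 injured arrays lay below all uninjured ones. Avil fell by 1.12 on the log2 scale (SE 0.26, 2.17-fold, adjusted p = 0.00868). With normexp the difference was -0.54 (SE 0.16, adjusted p = 0.0385) and did not pass. This call was close to the threshold: it was also lost in 12 of the 20 fits that each left out 1 array, namely any of replicates 2 to 5 of uninjured wild-type, uninjured Myd88KO or injured wild-type, with adjusted p values up to 0.0254. Within the arrays scanned on the first day, replicates 2 to 4, the difference was -1.51 (SE 0.16, adjusted p = 0.000464), and within those of the second day, replicates 1 and 5, it was -0.54 (SE 0.50, adjusted p = 0.623). In Myd88KO tracheas Avil was -3.73 to -2.90 without and -4.94 to -3.37 with injury, a difference of -0.65 (SE 0.26, adjusted p = 0.184), and -0.75 (SE 0.28, adjusted p = 0.0849) without replicate 5.

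With Trpm5 and Avil, 2 of the 11 tested member probes were called lower and 0 higher in wild-type injury, against 2.03% and 3.24% of all tested probes (5.26% in either direction). In Myd88KO injury 0 of 11 were called, against 0.376% of all probes, and 2 had an unadjusted p under 0.05. Without replicate 5 this became 1 of 11, against 4.12%.

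**Figure D1:**
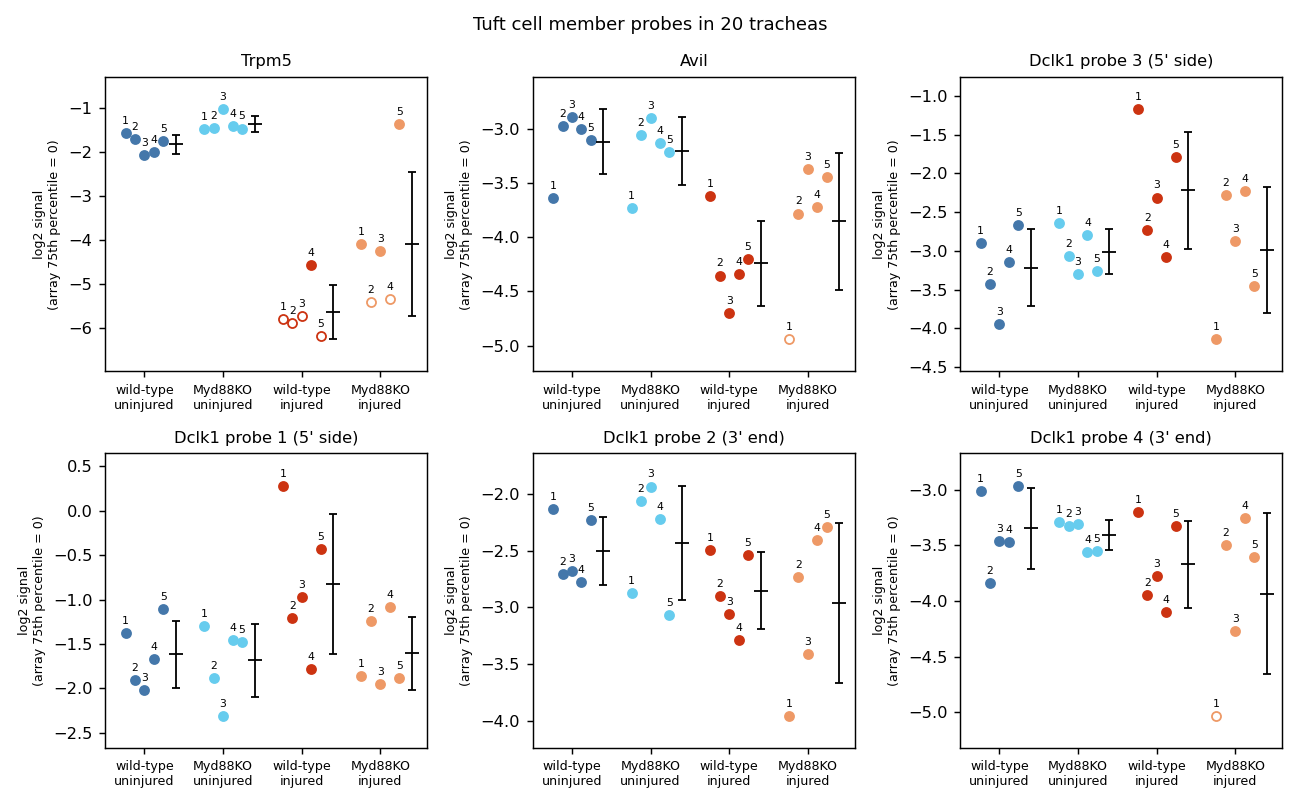
Signal of the 6 tested tuft cell probes (log2 intensity, array 75th percentile at 0) in the 20 tracheas by group. Points are single arrays numbered by replicate, filled where well above background and open where not, and bars beside them are the mean and SD; the injured Trpm5 points lie below all uninjured ones except replicate 5 of Myd88KO at -1.37.

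The 4 tested of the 5 Dclk1 probes gave injury differences of both signs, none of which passed the test. The file places the 5 on chromosome 3 along the gene, which reads in the plus direction, at 55510168 to 55580313 (probe 3), 55597091 to 55597150 (probe 1), 55646298 to 55662940 (probe 5), 55665666 to 55665725 (probe 2) and 55665859 to 55665918 (probe 4); the build of these positions is not named in the file. Wild-type injury gave 1.00 (SE 0.37, adjusted p = 0.0846) at probe 3 and 0.79 (SE 0.31, adjusted p = 0.107) at probe 1, towards the 5′ side, but -0.35 (SE 0.29, adjusted p = 0.484) at probe 2 and -0.32 (SE 0.27, adjusted p = 0.496) at probe 4, at the 3′ end. The difference between probes was not tested. Probe 5 was well above background on 0 of 20 arrays. In injured wild-type tracheas probe 1 ran from -1.79 to 0.28 and in uninjured ones from -2.02 to -1.10, and these ranges overlapped. Myd88KO injury gave 0.02 at probe 3, 0.08 at probe 1, -0.53 at probe 2 and -0.53 at probe 4, with adjusted p values of 0.305 to 0.986, and without replicate 5 it gave 0.13, 0.15, -0.69 and -0.61 in that order, with adjusted p values of 0.137 to 0.863. A further probe carries the name AI836758, which the gene table lists as Dclk1, and lies outside the members. Its wild-type injury difference was -0.61 (SE 0.24, adjusted p = 0.106), with groups that did not overlap, as for 4.68% of all tested probes.

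Pou2f3 was well above background on 1 of 20 arrays, in an uninjured Myd88KO trachea, and ran from -6.92 to -4.23 over all arrays. No order of its groups can be read at this signal.

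Between genotypes no member probe was called. In uninjured tracheas 0 of 11 were called, against 0.384% of all tested probes, with 0 at an unadjusted p under 0.05. Trpm5 was the only tested member probe whose uninjured groups did not overlap: all 5 Myd88KO arrays, at -1.48 or above, lay over all 5 wild-type arrays, at -1.58 or below. The difference of 0.46 (SE 0.52) had an adjusted p of 1.00, and 1.71% of all tested probes lay higher without overlap in this comparison. This SE comes from the fit over all 4 groups. The SD of Trpm5 was 0.21 in uninjured wild-type and 0.19 in uninjured Myd88KO, but 1.64 in injured Myd88KO. The one-way parametric test named in the methods, on the 2 uninjured groups alone, gave an SE of 0.13 and an unadjusted p of 0.00651. That did not pass after adjustment. Avil differed by -0.09 (SE 0.26), 5 of 5 slides giving a value between -0.13 and -0.01. In injured tracheas 0 of 11 were called, against 0.38% of all tested probes, and 3 had an unadjusted p under 0.05. Trpm5 was 1.54 higher in Myd88KO (SE 0.52, adjusted p = 0.214), and 0.86 higher without replicate 5 (SE 0.30, adjusted p = 0.329). By scan day it was 0.40 higher on the first (SE 0.37, adjusted p = 0.702) and 3.27 higher on the second (SE 0.75, adjusted p = 0.0309). Dclk1 probes 1 and 3 each differed by -0.78 in injured Myd88KO (SE 0.31 and 0.37, adjusted p = 0.297 and 0.399), and by -0.71 and -0.66 without replicate 5 (adjusted p = 0.484 and 0.588). The scan days differed for these probes too. On the first day, replicates 2 to 4, the differences were -0.10 and 0.25 (adjusted p = 0.906 and 0.74), and on the second, replicates 1 and 5, they were -1.80 and -2.32 (adjusted p = 0.00683 and 0.00732). The difference between the injury responses was called for 0 of 11 member probes, against 0% of all tested probes, with 0 member probes at an unadjusted p under 0.05. For Trpm5 it was 1.08 (SE 0.73, adjusted p = 0.604), and 0.40 (SE 0.41, adjusted p = 0.723) without replicate 5. By scan day it was -0.25 on the first (SE 0.53, adjusted p = 0.84) and 3.07 on the second (SE 1.07, adjusted p = 0.188).

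Other genes of tuft cells were read from 3 lists, with 37 genes tested and the brightest probe of each. In wild-type injury 5 of the 37 fell and 7 rose, which is 13.5% and 18.9% against 2.03% and 3.24% of all tested probes, with a median difference of 0.04 against 0.00 over all tested probes. In the list of the chemosensory cascade 3 of 12 fell. Gnb3, the G protein beta subunit that pairs with gustducin, was -1.59 to -0.57 in uninjured and -3.75 to -3.16 in injured wild-type arrays. These did not overlap, as for 4.68% of all tested probes, and Gnb3 fell by 2.27 (SE 0.40, adjusted p = 0.00143). Gng13, the gamma subunit of the same G protein, fell by 2.40 (SE 0.55, adjusted p = 0.00756). Rgs13, a regulator of G protein signalling, was well above background on 5 uninjured and 0 injured wild-type arrays, and its signal was lower by at least 2.50-fold (adjusted p = 0.00117). Plcb2, the phospholipase below gustducin, rose by 1.20 (SE 0.25, adjusted p = 0.00424), as did 2 further G protein genes of the list, Gnb1 and Gnai2, which most cells make.

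In the list of tuft effectors and structural genes 1 of 16 fell, the adaptor Sh2d7, by 2.63 (SE 0.58, adjusted p = 0.00571), and 3 rose. Among these were Alox5ap, which activates leukotriene synthesis, by 1.86 (SE 0.39), and Ptpn6, a phosphatase of blood cells, by 1.12 (SE 0.26). In the list of regulators 1 of 9 fell, the homeobox gene Hmx3, which was at least 3.73-fold lower with 0 of 5 injured arrays well above background (adjusted p = 0.00545), and 1 rose, the interleukin-4 receptor Il4ra, by 1.38 (SE 0.33). Leukocytes also express Plcb2, Alox5ap, Ptpn6 and Il4ra. Of 10 myeloid markers 4 were called higher and 0 lower in wild-type injury, against 3.24% and 2.03% of all tested probes, among them Cd68 by 3.27 (SE 0.53) and Csf3r by 4.05 (SE 0.83). Their summed signal was 8.30 to 9.12 in uninjured and 8.54 to 9.43 in injured wild-type arrays, 8.16 to 8.96 in uninjured and 8.19 to 8.87 in injured Myd88KO arrays, and its part in the tuft lists was not tested. Csf3r was well above background on 0 uninjured Myd88KO arrays. In Myd88KO injury it was at least 2.94-fold higher (adjusted p = 0.0752, not called). Without replicate 5 it was at least 4.66-fold higher and called (adjusted p = 0.00863).

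With Myd88KO, injury lowered 1 of the 37 tuft list genes past the test and raised 0, against 0.242% and 0.134% of all tested probes. The gene was Gnb3, at -1.04 to -0.21 in uninjured arrays and -4.16 to -1.05 in injured ones, with a difference of -2.37 (SE 0.40, adjusted p = 0.00576). Replicate 5 had -1.05 and the other 4 injured arrays -2.98 or less. Without replicate 5, 7 of the 37 were called lower and 0 higher, against 2.26% and 1.87%. These were Gnb3 (-2.87), Gng13 (-2.58), Sh2d7 (-2.83), Hmx3 (-2.83), the microvillus protein Vil1 (-1.11), Rgs13 and Hmx2, a homeobox gene related to Hmx3. Rgs13 and Hmx2 were well above background on 0 of the 4 injured arrays left and were lower by at least 2.79-fold and 2.22-fold. In that same fit 6 were called lower in wild-type injury, against 2.62% of all tested probes: the 5 above and Hmx2. Leaving out replicate 5 of injured wild-type instead left 3 called lower in wild-type, Gnb3, Rgs13 and Sh2d7, and 1 higher, Gnb1, against 1.37% and 2.02% of all tested probes. No gene of the 3 lists was called between genotypes, in uninjured or injured tracheas, or for the difference between the injury responses. In uninjured tracheas 7 of the 37 lay below 0 in Myd88KO against wild-type, with a median of 0.21 against 0.04 over all tested probes, and in injured ones 25 of 37, with a median of -0.17 against -0.03 (-0.15 against -0.05 without replicate 5).

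**Figure D2:**
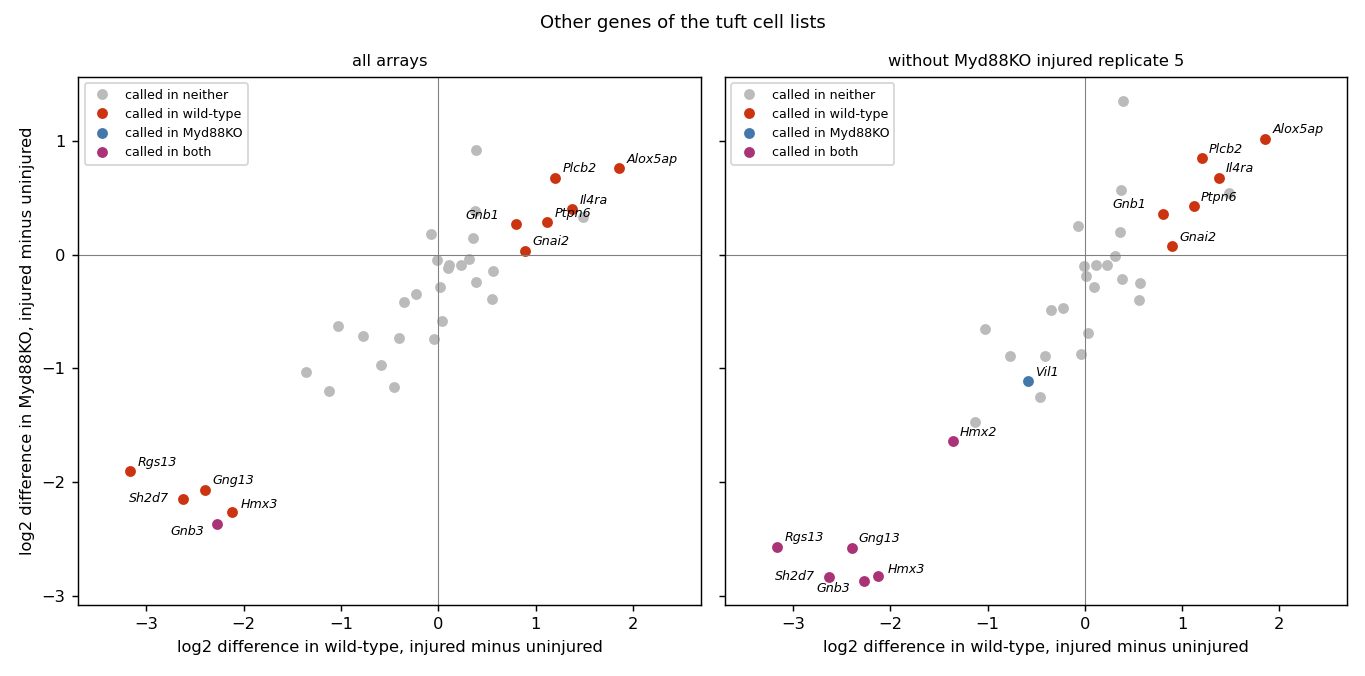
Injury difference (log2, injured minus uninjured, as measured also where a group was not well above background) of the tested tuft list genes, 1 of the 37 left out, in wild-type (x axis) and Myd88KO (y axis), with all arrays on the left and without replicate 5 of injured Myd88KO on the right. Colours show where a gene was called and called genes are named; Rgs13, Sh2d7, Gng13, Hmx3 and Gnb3 lie low in both genotypes, and genes called higher in wild-type, such as Alox5ap and Plcb2, lie at the upper right.

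The probes most like Trpm5 over the 20 arrays, among all other genes tested, were Slc35d3, a nucleotide sugar transporter of the solute carrier family (r = 0.99), 1700021K14Rik (r = 0.98) and Cyp4b1, a cytochrome P450 of the secretory cells of the airway (r = 0.98). Trpm5 falls into injured and uninjured clusters, and after the group means were removed these values were 0.93, 0.93 and 0.94, or 0.71, 0.77 and 0.94 without replicate 5 of injured Myd88KO. All 3 were called lower in wild-type injury, with differences of -4.05 (SE 0.50), -4.75 (SE 0.61) and -3.73 (SE 0.53). In Myd88KO injury Slc35d3 (-2.89, adjusted p = 0.00711) and 1700021K14Rik (-3.28, adjusted p = 0.00914) were also called, and Cyp4b1 (-2.40, adjusted p = 0.0222) was not. The Slc35d3 sizes are not exact, since its injured values, other than replicate 5 of Myd88KO, lay below the dimmest well-detected signal of their arrays. Slc35d3 was -2.46 and 1700021K14Rik 4.19 in replicate 5 of injured Myd88KO, where Trpm5 was -1.37. Some secretory markers were called in the same comparisons: of 7, 3 were called lower in wild-type and 2 in Myd88KO injury, against 2.03% and 0.242% of all tested probes, including Scgb1a1 with -7.91 (SE 0.69) and -6.24 (SE 0.73, fitted without replicate 5 of injured Myd88KO, whose spot was marked as an outlier), and of 7 ciliated markers 2 and 0 (1 in wild-type without replicate 5 of that injured group, and 1 in Myd88KO without its own). Avil was most like Tmem41b (r = 0.90), Il6ra (r = 0.89) and Six4 (r = 0.88), which have 0.81, 0.82 and 0.72 after removal of the group means. Dclk1 probe 1 was most like Pi15 (r = 0.93), the array name LOC668139 (r = 0.91) and the matrix proteoglycan Vcan (r = 0.91), and here the values within groups were 0.91, 0.87 and 0.87. These correlations are the highest of many and carry no test.

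No neuroendocrine member passed the test in any comparison with all arrays, and the arrays of a group often lay far apart. Calca probe 1, made to the calcitonin transcript, was 6.40, 4.69, 0.48 and 3.37 in replicates 1, 2, 3 and 5 of uninjured wild-type, and 1.53, 4.38, 5.19, 4.87 and 8.65 in replicates 1 to 5 after injury. In Myd88KO it was 4.21, 6.72, 7.36, 5.71 and 2.20 without injury, and 3.98, 4.72, 2.29 and 4.58 in replicates 1, 2, 3 and 5 after it. All groups overlapped, and the 18 arrays spanned 287-fold. Replicate 4 of uninjured wild-type and of injured Myd88KO had spots that the software marked as outliers, and they were left out. With them kept they read 7.98 and 6.51, both among the higher values. The injury difference was 1.19 (SE 1.31, adjusted p = 0.607) in wild-type and -1.35 (SE 1.31, adjusted p = 0.617) in Myd88KO, each fitted without the missing array. With the marked spots kept these became 0.34 (SE 1.33, adjusted p = 0.902) and -0.82 (SE 1.33, adjusted p = 0.781), and the difference between uninjured genotypes went from 1.503 to 0.65. Single arrays moved the wild-type value widely: it was 0.26 (SE 1.22, adjusted p = 0.914) without injured replicate 5, and ran from 0.10 to 2.08 over all arrays left out in turn. In Myd88KO it was -1.58 (SE 1.46, adjusted p = 0.526) without replicate 5, and ran from -2.11 to -0.81 over all arrays left out in turn.

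Calca probe 2, made to the CGRP transcript and placed by the file on chromosome 7 at 110547755 to 110547814, below probe 1 at 110549383 to 110549442, was -0.77, -1.94, -3.22, 0.90 and -3.16 in uninjured wild-type and -1.87, -3.09, -1.05, -2.21 and 1.93 after injury. In Myd88KO it ran from -2.96 to -0.61 without and from -4.69 to 0.32 with injury. The highest arrays were replicate 5 of injured wild-type, replicate 4 of uninjured wild-type and replicate 4 of injured Myd88KO. Injury gave 0.38 (SE 0.97, adjusted p = 0.844) in wild-type and -0.87 (SE 0.97, adjusted p = 0.668) in Myd88KO. The wild-type direction was not stable. Without injured replicate 5 the difference was -0.42 (SE 0.89, adjusted p = 0.797), and it ran from -0.42 to 1.02 over all arrays left out in turn. In Myd88KO it was -0.89 (SE 1.05, adjusted p = 0.629) without replicate 5, and ran from -1.61 to -0.36 over all arrays left out in turn.

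Chga had the widest range of all members, 1312-fold. It was -0.03, 0.50, 1.60, 0.64 and 0.55 in uninjured wild-type and -3.002, -2.57, -0.76, -1.60 and 7.36 after injury. Of the injured arrays 4 lay below all uninjured ones and replicate 5 far above them. In uninjured Myd88KO it was -0.35, 3.54, 0.83, -0.06 and 3.42, and after injury -1.62, -2.18, 1.13, -0.23 and 3.22. The wild-type injury difference was -0.77 (SE 1.495, adjusted p = 0.789), and without replicate 5 it was -2.64 (SE 0.97, adjusted p = 0.087), with a range of -2.64 to -0.05 over all arrays left out in turn. In Myd88KO it was -1.41 (SE 1.495, adjusted p = 0.65), and -2.20 (SE 1.53, adjusted p = 0.381) without its replicate 5. There it ran from -2.20 to -0.85 over all arrays left out in turn.

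Chgb probe 1 was -1.27, -1.14, -1.74, 0.06 and -1.44 in uninjured wild-type and -2.31, -3.52, -2.89, -3.67 and 0.11 after injury. Again 4 injured arrays lay below all uninjured ones and replicate 5 above them. Injury gave -1.35 (SE 0.57, adjusted p = 0.131), a value that 1 array decided: without replicate 5 Chgb fell by 1.99 (SE 0.42, 3.97-fold, adjusted p = 0.00724) and passed the test, in a fit that called 1.37% of all probes lower. Replicate 5 is the array whose value opposed the fall. This call therefore shows how much that array weighs and does not test a fall of Chgb. In that fit Avil no longer passed (adjusted p = 0.0172), so that 2 of the 11 member probes were again called, Trpm5 and Chgb. Myd88KO arrays were -0.99, -0.76, -0.52, -1.04 and -1.39 without and -1.88, -3.22, -2.70, -1.40 and -0.94 with injury, a difference of -1.09 (SE 0.57, adjusted p = 0.304), or -1.36 (SE 0.59, adjusted p = 0.14) without replicate 5. Chgb probe 2 was well above background on 0 of 20 arrays.

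Scg2 was well above background on 12 of 20 arrays. It was -3.50, -3.65, -4.66, -1.22 and -4.70 in uninjured and -5.11, -5.25, -4.55, -5.29 and -1.82 in injured wild-type, and the groups overlapped, with replicates 3 and 5 of the injured group above some uninjured arrays. Its injury difference was -0.86 (SE 0.73, adjusted p = 0.493) in wild-type, and -1.51 (SE 0.66, adjusted p = 0.151) without replicate 5, with a range of -1.51 to -0.28 over all arrays left out in turn. In Myd88KO it was -0.58 (SE 0.73, adjusted p = 0.712), and -0.76 (SE 0.79, adjusted p = 0.576) without its replicate 5. Between genotypes the 5 tested neuroendocrine probes gave -0.28 to 1.503 in uninjured tracheas and -1.38 to 0.43 in injured ones (-1.41 to 0.15 without replicate 5 of Myd88KO), and 0 were called in either. Replicate 5 of injured wild-type moved the injured values more. Without it Chga was 2.05 (SE 0.97, adjusted p = 0.455), Chgb 1.07 (SE 0.42, adjusted p = 0.391) and Scg2 0.65 (SE 0.66, adjusted p = 0.748) higher in Myd88KO, the 5 probes ran from -0.59 to 2.05, and again 0 were called.

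**Figure D3:**
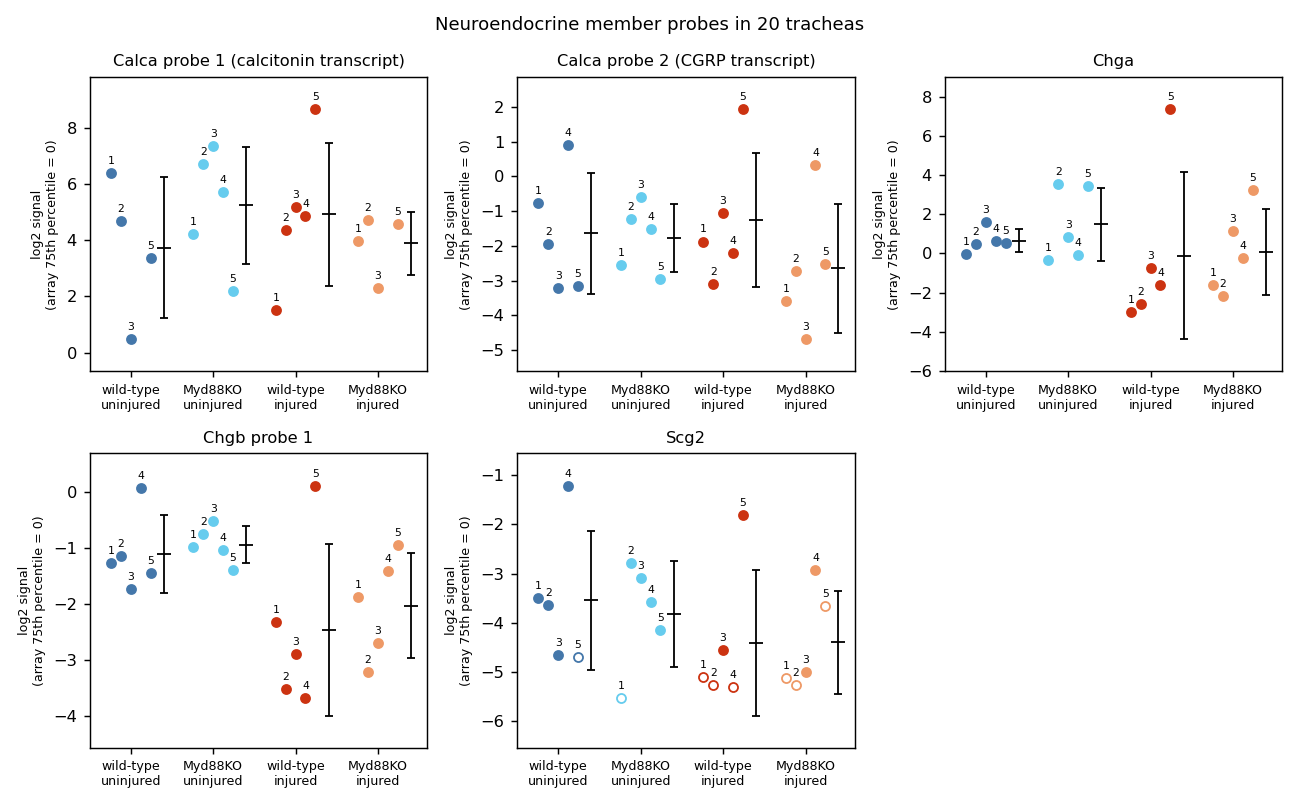
Signal of the 5 tested neuroendocrine probes (log2 intensity, array 75th percentile at 0) in the 20 tracheas by group. Points are single arrays numbered by replicate, open where not well above background, with mean and SD beside them; replicate 5 of injured wild-type is the highest of its group in all 5 panels, at 7.36 for Chga, and Calca probe 1 lacks 2 arrays whose spots were marked as outliers.

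**Figure D4:**
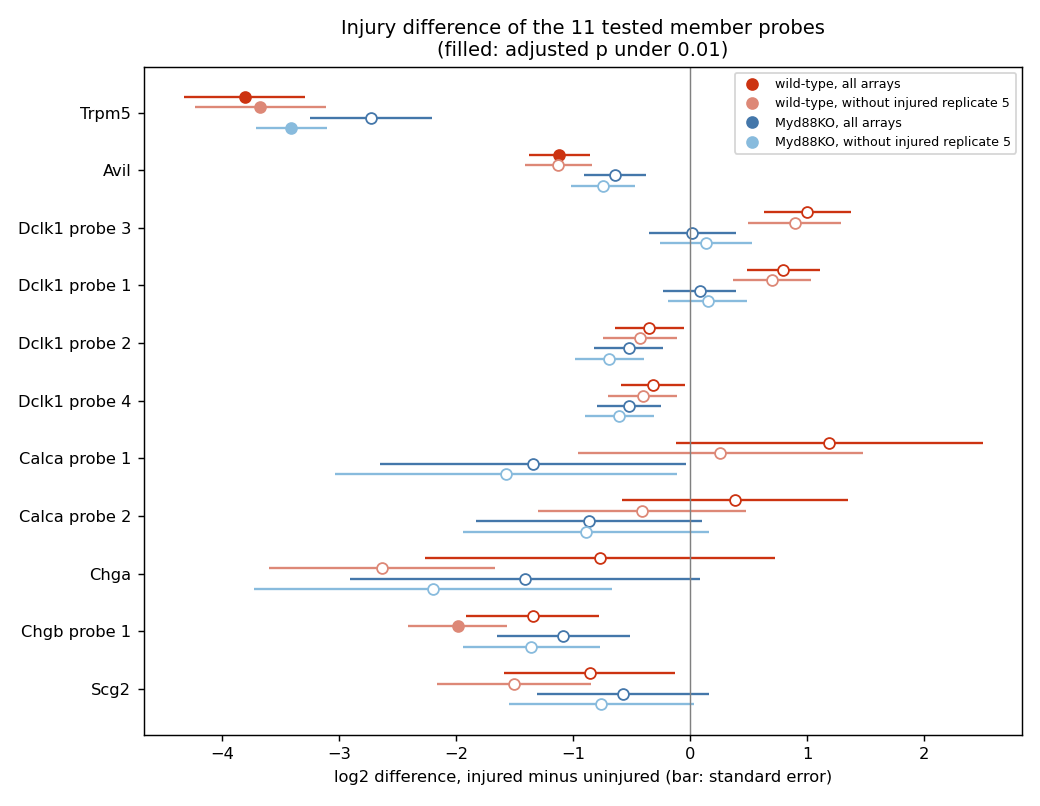
Injury difference (log2, injured minus uninjured, bars are standard errors) of the 11 tested member probes in wild-type and Myd88KO, with all arrays and without replicate 5 of the injured group of that genotype. Filled points passed an adjusted p of 0.01: Trpm5 in wild-type and, without replicate 5, in Myd88KO, Avil in wild-type, and Chgb in wild-type without replicate 5. For Chgb the array left out is the one whose value opposed the fall.

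Whether members vary together between animals of a group was asked for the brightest tested probe of each of the 7 members, over all 21 pairs and after removal of group means (2-sided permutation test of arrays within groups). The permutation did not take into account the slide that same-numbered arrays share. Chgb and Scg2 were the only pair that passed an adjusted p of 0.05 for Pearson's r over the 20 arrays, with r = 0.82 (p = 0.00036, adjusted p = 0.00756) and rho = 0.74 (p = 0.00048, adjusted p = 0.0101). Without the 2 arrays farthest from the median of Chgb r was 0.65. Scg2 was well above background on 12 of the 20 arrays, so its other values in these pairs lie near background. For Calca and Scg2, over 18 arrays, r was 0.71 (p = 0.00574, adjusted p = 0.0603) and rho 0.75 (p = 0.00154, adjusted p = 0.0162), and without the 2 farthest arrays r was 0.59. Chga with Chgb had r = 0.68 (p = 0.0486, adjusted p = 0.204) but rho = 0.38 (p = 0.144, adjusted p = 0.455), and r dropped to 0.17 without the 2 farthest arrays, so that it rested on those. For Trpm5 and Avil, the members called in wild-type injury, no correlation within groups was detected (r = 0.09, p = 0.804, adjusted p = 0.938, and rho = -0.05, p = 0.861, adjusted p = 0.952). Trpm5 was well above background on 14 of 20 arrays, so the test could hardly show one among the dim injured arrays.

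The gene most like Chga over the 20 arrays was Pth, with r = 0.82 and rho = 0.73, and r = 0.89 after removal of group means. Pth was 8.45 in replicate 5 of injured wild-type, where Chga was 7.36, and 3.67 and 4.33 in replicates 2 and 5 of uninjured Myd88KO and 4.32 in replicate 5 of injured Myd88KO, where Chga was 3.54, 3.42 and 3.22. These were the 4 highest arrays for each of both genes. Without the 2 arrays farthest from the median of Pth r was 0.69. The part of parathyroid tissue in the Chga differences was not tested. Pth itself differed by 1.53 in wild-type injury and by 0.95 in Myd88KO injury, and was called in neither. The next most like Chga were Cryba2 (r = 0.74) and Arhgap20 (r = 0.73).

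**Figure D5:**
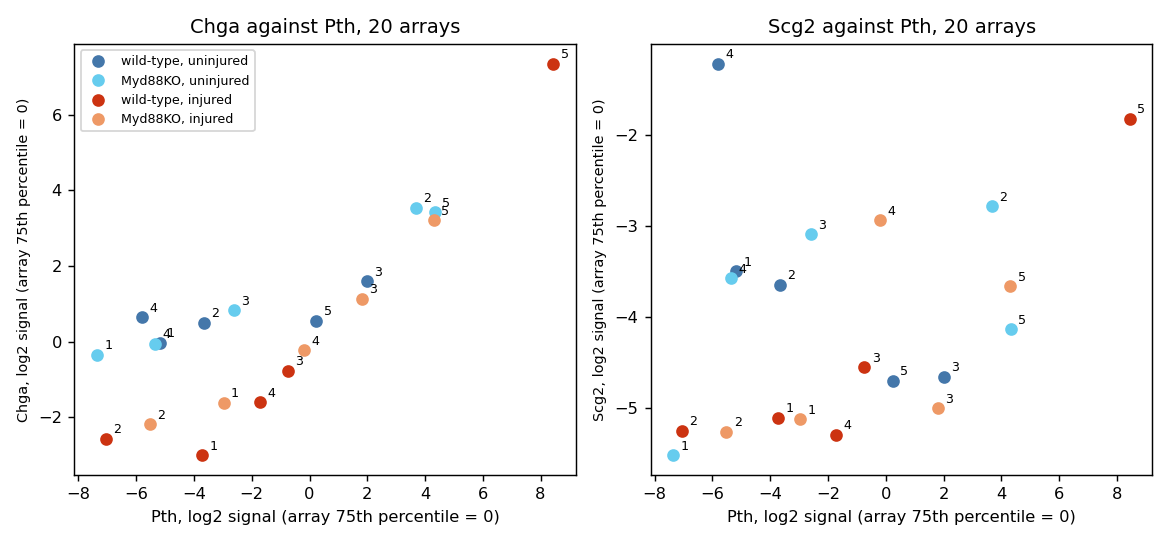
Signal of Chga (left) and Scg2 (right) against Pth on the 20 arrays (log2 intensity, array 75th percentile at 0), coloured by group and numbered by replicate. Chga is highest where Pth is highest, with replicate 5 of injured wild-type at 8.45 for Pth and 7.36 for Chga, while the highest Scg2 value, -1.22, is in an array with Pth at -5.81.

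Chgb was most like Resp18, a protein of dense-core granules (r = 0.91), the prohormone convertase Pcsk1 (r = 0.88) and the growth factor Vegfa (r = 0.85). Scg2 was most like the prohormone convertase Pcsk2 (r = 0.90), Calca probe 2 (r = 0.83) and Resp18 (r = 0.80). Calca is itself a member and is named here by the other of its probes. In replicate 4 of uninjured wild-type, where Scg2 and Calca probe 2 were highest of their group, Pcsk2 was 1.59 and Resp18 -2.41, each also the highest of that group. Calca probe 1 was most like Parp11 (r = 0.79), Cd79b (r = 0.77) and Kcnk1 (r = 0.77) over its 18 arrays.

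Of 34 other genes tested from the 3 neuroendocrine lists, 3 fell and 0 rose in wild-type injury, 8.82% against 2.03% of all probes called lower, with a median of -0.34 against 0.00. Ddc, the decarboxylase that makes dopamine and serotonin, was -2.76 to -1.34 in uninjured and -3.99 to -2.74 in injured wild-type and fell by 1.32 (SE 0.28, adjusted p = 0.00511). Cpe, the carboxypeptidase that trims prohormones, fell by 0.77 (SE 0.13, adjusted p = 0.00143), and a second Cpe probe fell by 0.74 (SE 0.16, adjusted p = 0.00572). Isl1, a LIM homeobox transcription factor of endocrine cells and neurons, fell by 0.84 (SE 0.18, adjusted p = 0.00559). In Myd88KO injury 2 of 34 were called lower and 0 higher, against 0.242% and 0.134% of all tested probes: Ddc, with -1.53 (SE 0.28, adjusted p = 0.00915), and the vesicle protein Syp, with -0.89 (SE 0.16, adjusted p = 0.00843). The median was -0.67 against -0.07 over all tested probes. Without replicate 5 these became 5 of 34, against 2.26%, among them the vesicle genes Syt1 at -1.62 and Rab3b at -0.85 beside Ddc and Syp. In that same fit 5 of 34 were also called lower in wild-type injury, 14.7% against 2.62% of all tested probes, with Syt1 (-1.31) beside Ddc, Cpe and Isl1. Without replicate 5 of injured wild-type, 3 of 34 were called lower in wild-type, against 1.37%, namely Cpe, Ddc and the convertase Pcsk1 (-2.14, SE 0.42, adjusted p = 0.00443), and 1 in Myd88KO, Ddc, against 0.161%. For Pcsk1 the array left out was the highest of its group, at -2.41. No gene of these lists was called between genotypes. In uninjured tracheas 5 of the 34 lay below 0 in Myd88KO against wild-type, with a median of 0.23 against 0.04 over all tested probes, and in injured ones 16 of 34, with a median of 0.02 against -0.03 (-0.09 against -0.05 without replicate 5).

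Markers of tissues that share these genes were read beside them. Of 9 neuron markers and 8 glia markers tested 0 were called in any comparison. Of all tested probes 5.26% were called in wild-type injury, 0.376% in Myd88KO injury and 0.384% or less in the other comparisons. The medians of these markers were -0.04 and 0.09 in wild-type and -0.63 and -0.54 in Myd88KO injury, where 8 of 9 and 7 of 8 lay below 0. Without replicate 5 of Myd88KO the latter medians were -0.85 and -0.62. The summed neuron signal was 2.46 to 3.02, 2.42 to 3.05, 2.47 to 3.21 and 1.74 to 2.97 in uninjured wild-type and uninjured Myd88KO tracheas and then in injured wild-type and injured Myd88KO ones. The 7 thyroid genes had a median of -0.28 in wild-type and -1.29 in Myd88KO injury (-1.23 without replicate 5). They lay below 0 in 6 and 7 of 7, and 0 were called, against the same shares of all tested probes. Their summed signal was 6.58 to 8.50, 6.44 to 8.90, 6.97 to 8.65 and 6.60 to 7.77 in the same order of groups. The part of these tissues in the neuroendocrine lists was not tested.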

How the data were processed

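RNA of 20 mouse tracheas was measured on single-dye arrays. The authors deposited scanner files whose spot intensity had been background-subtracted and detrended by Agilent Feature Extraction 9.5.1.1 but not scaled between arrays, with software flags (other values, 0 or 1) for spots well above background, together with the deposited values of the same intensity, in rounded form (ratio 0.995 to 1.00). The genome build of the probe positions is not given in the sources used here.

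Control spots and 1960 values marked as outliers were left out, spots of a probe were averaged, and log2 intensity was set relative to the 75th percentile of each array. Probes well above background on at least 10 of 20 arrays, following the study's exclusion of transcripts present in under 50% of samples, were fitted over all 20 arrays with limma 3.58.1 (R 4.3.3). P values were Benjamini-Hochberg adjusted within each of 5 contrasts over all 26063 tested probes and called under 0.01. The fit and the correlation test were checked on simulated data. The methods name a one-way parametric test, run as an alternative. Probes were named through RefSeq genes (GRCm38.p6, names only), 22951 by accession, 6659 by symbol, 3109 by an older symbol, and 8455 kept the array's name. Figures were drawn with matplotlib 3.10.9 (Python 3.11.15).

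Members and lists were chosen with earlier results of these data known. Every member probe is given, a member is led by its brightest probe, each list gives called genes up to the 4 largest differences per contrast, with others named after their values were seen, and likeness names the 3 most correlated probes of other genes. Of 209 list genes those with a tested probe were used; the lists of basal, epithelial, ionocyte, mast cell, adipocyte, skeletal muscle and cartilage markers are given in the closing section. Where a group had no array well above background, the fold is a lower bound: on each of its arrays the dim probe was set to the dimmest well-detected signal, or to its own value if that was higher. Animals came from at least 3 litters, per the methods, unlabelled here. Labels and methods differ on input RNA (600 ng and 2 µg). Leaving out replicate 5 of both injured groups, fitting each scan day alone, and likeness without replicate 5 of injured Myd88KO, were chosen after seeing the data. Each array was left out in turn, but giving in full the fits without replicate 5 of injured Myd88KO or of injured wild-type was also chosen then. The other alternatives are in the closing section. Some list genes are counted but not reported here by name.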

Additional observations from a re-analysis of the deposited data

Results flagged for a closer look

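Within groups, 6 of the 44 sets of values of tested member probes held an array farther from the others than Dixon's test allows, where chance gives about 1 in 20. In injured wild-type, replicate 5 stood high for Chga, at 7.36 with the next at -0.76, and for Scg2, at -1.82 with the next at -4.55. Replicate 4 of injured wild-type was high for Trpm5, at -4.57, and replicate 3 of uninjured Myd88KO was high for Trpm5, at -1.03. Avil was low in replicate 1 of uninjured wild-type, at -3.64, and in replicate 1 of injured Myd88KO, at -4.94.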

How the results depend on the processing

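Trpm5 was called lower in wild-type injury in every alternative in which it was tested except scan day 2 alone (adjusted p = 0.0181). The count of member probes called there, 2, became 1 with normexp background correction (Trpm5 at -1.71, Avil at -0.54), with quantile normalization, without the filter on dim probes and with the methods' test after Benjamini-Hochberg adjustment, and 0 where a probe had to be well above background on all 20 arrays, which leaves Trpm5 and Avil untested, or with scan day 2 alone, and it ran from 1 to 2 with 1 array left out. In Myd88KO injury the count of 0 became 1, Trpm5, with normexp, scan day as a fixed term, array weights, the methods' test unadjusted, scan day 1 alone or replicate 5 of both injured groups left out, and ran from 0 to 1 with 1 array left out. Between uninjured genotypes the methods' test unadjusted called 1 probe, Trpm5, and between injured genotypes scan day 2 alone called 2, Dclk1 probes 1 and 3, which were -0.10 and 0.25 on day 1. The former does not allow for the number of probes tested. Scan day 2 holds 2 arrays per group, among them replicate 5 of injured Myd88KO. The shares of all tested probes called under these alternatives are not given here, so the counts are not read as results about the members. The 1 correlated pair became 2 with quantile normalization or centring on the median and 1 to 3 with 1 array left out. The cause was not tested. Same-numbered arrays shared a slide; over 30 same-numbered pairs the deviations correlated with a median of 0.24, over 0.1 in 23, against -0.08 and 35 of 120 for different numbers. Since the check asked for every pair over 0.1, the block was kept as an alternative, and the replicate block kept the count at 2 in wild-type and 0 in Myd88KO injury. Of the 827 member differences under alternatives other than leaving out 1 array, 810 kept their side of the threshold, and 0 reversed a called direction. Among uncalled differences the direction changed for 37 of these, and for 47 of 1100 with 1 array left out. With 5 arrays a group, and signals near background for Trpm5, Scg2 and Pou2f3, small differences were not detectable.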

Other observations

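Markers of further tissues gave few calls. Over all tested probes 5.26% were called in wild-type and 0.376% in Myd88KO injury, so few calls are expected in lists this short. In wild-type and Myd88KO injury 0 genes were called of 5 basal, 9 general epithelial, 7 skeletal muscle, 7 adipocyte, 6 cartilage and 6 mast cell markers tested with limma, with medians of 0.34 and 0.45, 0.13 and 0.24, -0.45 and -0.60, -0.26 and -0.78, -0.23 and -0.28, and 0.00 and -0.21. Of 3 ionocyte markers Ascl3, a transcription factor of ionocytes, fell by 1.87 in wild-type injury (SE 0.39, adjusted p = 0.00456) and differed by -0.90 in Myd88KO injury (adjusted p = 0.216).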
